A study of Mus musculus with 2 samples.

Results

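The collagen chain genes were described on 2 Affymetrix expression arrays of mouse embryonic stem (ES) cells in which the region lost in Williams-Beuren syndrome (WBS), a human deletion disorder, is deleted. Members were all probe sets whose only assigned gene has a symbol of the form Col, number, a, number, which gave 82 of the 34958 probe sets with 1 gene symbol, for 42 of 18194 genes. The reference gene table holds 44 such genes, and Col6a6 and Col28a1 had no probe set assigned to them alone. Both arrays hold total RNA of 1 line, ESSP9, with the genotype Del1.3MbWBS, a deletion of 1.3 Mb. The cells grew on a feeder monolayer, with LIF in medium holding 20% serum replacement, so the RNA can include that of the feeders. The labels call the arrays biological replicates and do not say whether separate cultures were used, and their spread may therefore be technical in part. No line without the deletion was analysed here, and no comparison between genotypes was made. The segment from Gtf2i to Fkbp6 holds 0 collagen genes in the reference. Col26a1, the 1 collagen gene measured on the same chromosome (chromosome 5), lies outside it with 28 protein-coding genes between.

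Collagens are secreted proteins of the extracellular matrix whose chains wind around each other in a triple helix, with glycine at regular steps along each chain. Fibrillar collagens (types I, II, III, V and XI) assemble into the banded fibres of connective tissue, type IV collagen forms the network of basement membranes, and type VI forms beaded microfilaments. FACIT collagens, which have interrupted helices, sit on the surface of fibrils. The labels do not say what the feeder cells were. Fibroblasts, often used as feeders, are a main source of fibrillar collagen, and early embryonic cells are known to make basement membrane collagen.

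Values are RMA log2 expression values. The 2 values given for a collagen gene are those of replicate 1 and replicate 2, in that order, on its brightest probe set, followed in parentheses by the mean ± SD (n = 2). Other genes are given by their mean ± SD (n = 2). To be called above background, a gene had to exceed, in its mean and in both array values, the 95th percentile of a reference set. This set was 39 olfactory receptor genes, which are not expected to be transcribed in these cells. That threshold was 5.59 for the mean, 5.60 on replicate 1 and 5.58 on replicate 2. Probes differ in affinity, so the value of one gene was not ranked against that of another.

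Of the 42 collagen genes, 29 (69.0%) were above background, against 68.4% of all genes, so the share called was close to that of the array as a whole. The 29 include 9 of 11 fibrillar, 3 of 6 basement membrane, 4 of 5 beaded filament, 6 of 9 FACIT and 7 of 11 other collagen genes. At least 4 log2 units above the threshold, termed far above background here, were 16 collagen genes (38.1%), against 20.2% of all genes, and 7 of these 16 were fibrillar. The median value was 7.56 over collagen genes and 7.19 over all genes. These shares carry no test, since genes are not replicates and the number of arrays limits the precision. The arrays hold RNA of the whole culture, and fewer cells of a type and less RNA per cell cannot be told apart in them.

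**Figure D1:**
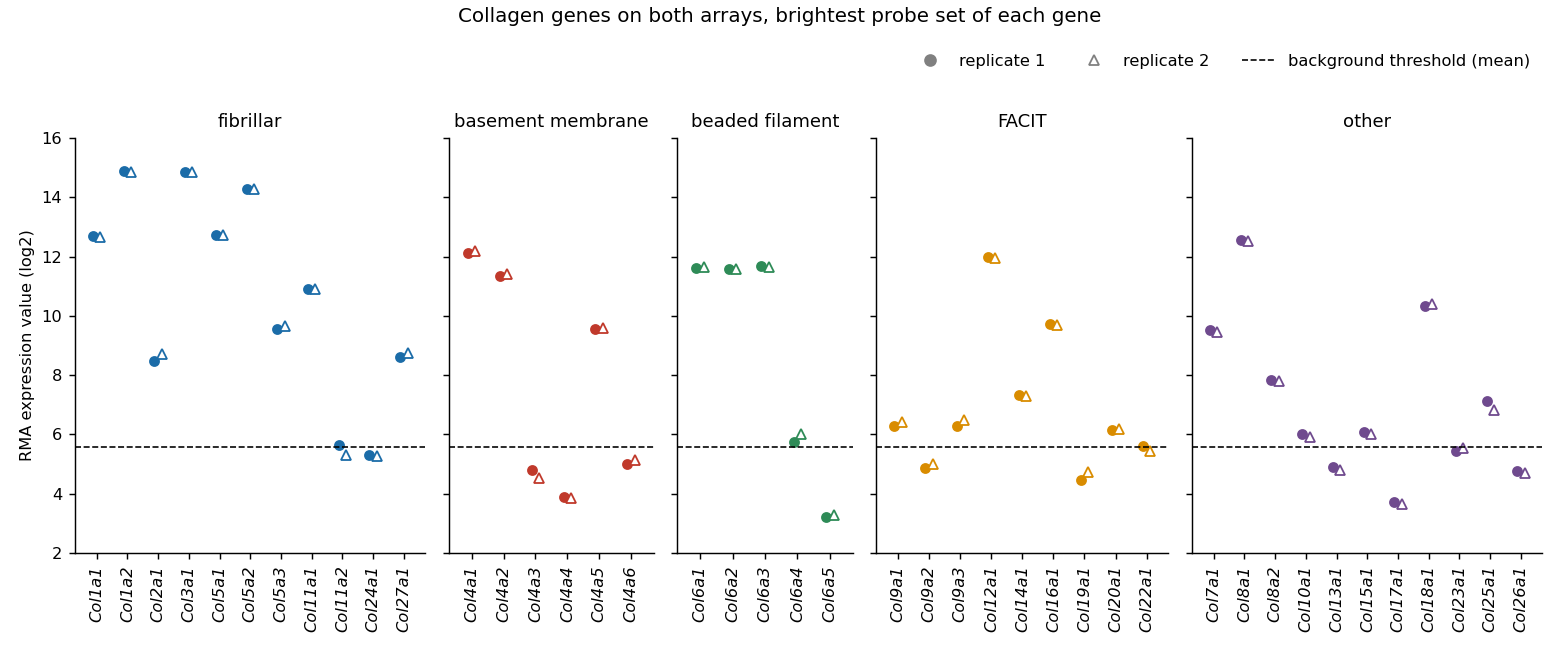
RMA log2 values (vertical axis) of the 42 collagen genes (horizontal axis, grouped by class), with filled circles for replicate 1, open triangles for replicate 2 and a dashed line at the background threshold of 5.59. Both arrays sit close together for each gene, and 29 genes lie above the line on both arrays.

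Markers of both the ES cells and fibroblasts were above background in the same RNA, as were 68.4% of all genes. All 11 ES cell markers were above background, with means from 9.38 to 14.09, among them the pluripotency factor genes Pou5f1 at 12.63 ± 0.020, Nanog at 12.11 ± 0.063, Sox2 at 12.11 ± 0.047 and Klf4 at 11.23 ± 0.044. All 12 measured fibroblast markers that are not collagen genes were also above background, with means from 8.81 to 14.28. These include the surface marker gene Thy1 at 10.78 ± 0.019, the growth factor receptor genes Pdgfra at 8.98 ± 0.046 and Pdgfrb at 12.16 ± 0.0035, and the vimentin gene Vim at 14.28 ± 0.020. The part of the feeder cells in the collagen values was not tested.

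The genes of the main fibrillar collagens were far above background on both arrays. Col1a1, which encodes the alpha 1 chain of type I collagen, the collagen of bone, tendon and skin, was at 12.69 and 12.66 (12.67 ± 0.021). Its partner chain gene Col1a2 was at 14.88 and 14.87 (14.87 ± 0.0061). Col3a1, whose product forms the homotrimeric type III collagen of distensible tissues, was at 14.87 and 14.86 (14.86 ± 0.0025). On the brightest probe sets of these genes the arrays differed by at most 0.03 log2 units, and the means lay at least 7.08 log2 units above the threshold. The dimmest probe set of Col1a2 was at 7.36 and 7.51 (7.43 ± 0.11).

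Sequence upstream of Col1a2 and Col3a1 is shown because both genes were far above background and their starts differ in the promoter motifs they hold. The 250 bases before the annotated start (RefSeq, GRCm38.p6) are printed 5′ to 3′ on the strand of the gene, at chr6:4505368-4505617 (plus strand) for Col1a2 and chr1:45311288-45311537 (plus strand) for Col3a1. Capitals mark every match, on either strand, to the TATA box TATAAA, the CCAAT box CCAAT or the GC box GGGCGG.
Col1a2: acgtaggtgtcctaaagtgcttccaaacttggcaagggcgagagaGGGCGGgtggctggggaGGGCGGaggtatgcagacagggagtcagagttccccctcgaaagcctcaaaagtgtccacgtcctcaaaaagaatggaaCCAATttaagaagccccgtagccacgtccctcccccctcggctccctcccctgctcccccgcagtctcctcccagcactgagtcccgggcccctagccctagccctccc
Col3a1: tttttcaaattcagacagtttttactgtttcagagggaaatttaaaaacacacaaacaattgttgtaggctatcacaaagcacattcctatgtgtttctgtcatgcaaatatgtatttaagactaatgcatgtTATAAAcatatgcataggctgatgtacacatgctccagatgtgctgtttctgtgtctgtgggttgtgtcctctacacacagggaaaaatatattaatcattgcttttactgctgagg
The Col1a2 stretch holds 2 GC boxes and 1 CCAAT box, and the Col3a1 stretch holds 1 TATA box, beginning 117 bases before the start. Over all 32851 promoter windows of 300 bases in the table, 35.7% hold a GC box, 37.4% a CCAAT box and 13.6% a TATA box on either strand. A match describes letters and is not a shown binding site.

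Type V collagen, which is buried in type I fibrils and governs their diameter, had all of its chain genes above background. Col5a1, which encodes a chain of its usual trimer, was at 12.72 and 12.74 (12.73 ± 0.014). The partner chain gene Col5a2 was at 14.30 and 14.29 (14.29 ± 0.0053). Col5a3, whose chain occurs in fewer tissues, was at 9.56 and 9.65 (9.61 ± 0.063). Col5a2 is the neighbour of Col3a1 in the reference, with no protein-coding gene between, and both were far above background.

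The type II and XI genes, best known from cartilage, were split. Col11a1 was at 10.92 and 10.90 (10.91 ± 0.015), and its second probe set was also above background, at 10.44 and 10.49 (10.46 ± 0.031). Col2a1, the main collagen gene of cartilage, was at 8.47 and 8.70 (8.59 ± 0.16), a difference of 0.23 log2 units between the arrays and the largest among the fibrillar genes above background. Col11a2, whose product joins the type XI trimer, was at 5.63 and 5.31 (5.47 ± 0.23), over the threshold of replicate 1 only, and was not called. Beside these values, 2 of 8 chondrocyte markers were above background, against 68.4% of all genes, with means from 4.16 to 6.16 over the list. The transcription factor gene Sox9 was at 6.16 ± 0.20 and Ucma at 5.82 ± 0.18, whereas Acan, which encodes the aggrecan core protein, was at 5.55 ± 0.034 and the matrilin gene Matn1 at 4.20 ± 0.088. The part of such cells in these values was not tested.

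The late-identified fibrillar genes differed in their calls. Col27a1 was above background at 8.60 and 8.74 (8.67 ± 0.099), with its second probe set at 7.91 and 7.86 (7.89 ± 0.031). Col24a1 was not, at 5.32 and 5.26 (5.29 ± 0.044), which is 0.30 log2 units under the threshold for the mean. Of the 11 fibrillar genes, 9 (81.8%) were thus called, against 68.4% of all genes. The remaining genes, Col11a2 and Col24a1, lay within 0.5 log2 units of the threshold.

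Of the 6 basement membrane collagen genes 3 were called, against 68.4% of all genes, and the calls differed between and within gene pairs. The 6 type IV genes lie in the genome as neighbouring pairs that are transcribed away from each other. Both genes of the first pair were far above background. Col4a1 was at 12.13 and 12.18 (12.16 ± 0.035). Col4a2, whose product joins it in the ubiquitous type IV trimer, was at 11.33 and 11.43 (11.38 ± 0.066). Neither gene of the pair whose products are typical of the mature kidney filter was above background. Col4a3 was at 4.79 and 4.53 (4.66 ± 0.18) and Col4a4 at 3.87 and 3.85 (3.86 ± 0.014), and the values of all 5 probe sets of this pair were under the threshold on both arrays. In the X-linked pair, Col4a5 was above background at 9.57 and 9.61 (9.59 ± 0.028) and Col4a6 was not, at 5.003 and 5.14 (5.07 ± 0.093). The second probe sets gave the same calls, at 8.09 and 8.15 (8.12 ± 0.046) for Col4a5 and 4.83 and 4.79 (4.81 ± 0.029) for Col4a6.

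Sequence of the Col4a5 and Col4a6 promoters is shown because this is the one type IV pair whose genes differed in their calls. Their annotated starts lie 1343 bases apart. The 250 bases before each start (RefSeq, GRCm38.p6) are at chrX:141475169-141475418 (plus strand) for Col4a5 and chrX:141474077-141474326 (minus strand) for Col4a6, with capitals as before.
Col4a5: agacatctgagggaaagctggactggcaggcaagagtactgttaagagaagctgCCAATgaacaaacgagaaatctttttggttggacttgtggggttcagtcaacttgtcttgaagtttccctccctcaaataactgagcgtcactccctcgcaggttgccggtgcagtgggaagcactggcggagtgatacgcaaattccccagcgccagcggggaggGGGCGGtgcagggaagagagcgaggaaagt
Col4a6: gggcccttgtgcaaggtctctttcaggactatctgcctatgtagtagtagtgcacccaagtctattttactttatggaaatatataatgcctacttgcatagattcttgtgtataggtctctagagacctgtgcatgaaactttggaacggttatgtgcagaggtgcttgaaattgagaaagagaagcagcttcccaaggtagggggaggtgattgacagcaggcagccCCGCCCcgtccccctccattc
The Col4a5 stretch holds a CCAAT box and a GC box on the strand of the gene, and the Col4a6 stretch holds a GC box on the opposite strand, written CCGCCC. The windows differ in CpG dinucleotides, with 11 in the 300 bases of Col4a5 and 3 in those of Col4a6, against a median of 7 over all windows. This difference did not run with the call in general. The window of Col4a4, which was not called, holds 14. Over the collagen windows the median was 11.5 for genes above background and 12 for genes that were not. The starts of Col4a1 and Col4a2 lie 21 bases apart in the same table. The Col4a2 start (plus strand) is at 11312805 and the Col4a1 start (minus strand) at 11312826, so the annotated transcripts overlap there. The windows of Col4a1 and Col4a2, which also overlap, hold 37 and 33 CpG dinucleotides.

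Parietal endoderm is an embryonic cell type that secretes a thick basement membrane. Beside the type IV values, 7 of 8 of its markers were above background, against 68.4% of all genes. Means ran from 5.45 to 12.07 over the list. Gata6 was at 7.72 ± 0.013, Sox7 at 5.90 ± 0.22, Sox17 at 5.81 ± 0.043 and Foxa2 at 5.72 ± 0.029, the latter 3 within 0.5 log2 units of the threshold. The remaining called members were Thbd at 9.18 ± 0.040, Plat at 10.16 ± 0.074 and Lamb1 at 12.07 ± 0.033. They are named outside the rule for naming genes, after their values were seen. Gata4 was not above background, at 5.45 ± 0.050. The part of such cells in the Col4a1 and Col4a2 values was not tested.

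Among the beaded filament genes, the chains of the classical type VI trimer were far above background. Col6a1 was at 11.62 and 11.66 (11.64 ± 0.026). Col6a2, its neighbour in the genome, was at 11.57 and 11.58 (11.58 ± 0.0058). Col6a3, which encodes the longest of these chains, was at 11.70 and 11.64 (11.67 ± 0.038). The largest difference between the arrays among them was 0.05 log2 units, for Col6a3. The later-found chains that can replace alpha 3 lay near or under the threshold. Col6a4 was above it at 5.75 and 5.997 (5.87 ± 0.17), by 0.29 log2 units, on 1 of 2 probe sets, and Col6a5 was not, at 3.23 and 3.26 (3.24 ± 0.026).

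The FACIT genes ranged from far above background to below it. Col12a1, whose product binds type I fibrils, was at 12.004 and 11.95 (11.98 ± 0.041). Col16a1 was at 9.73 and 9.68 (9.71 ± 0.036). Col14a1, a close relative of Col12a1, was above background at 7.32 and 7.30 (7.31 ± 0.011). The products of the type IX genes coat cartilage fibrils. Col9a1 was at 6.30 and 6.43 (6.36 ± 0.094) and Col9a3 at 6.30 and 6.47 (6.39 ± 0.12), both less than 1 log2 unit above the threshold. The remaining chain gene Col9a2 was not above background, at 4.86 and 5.002 (4.93 ± 0.097). Col20a1 was called at 6.16 and 6.19 (6.18 ± 0.016). Col19a1 was not, at 4.47 and 4.74 (4.60 ± 0.19), nor was Col22a1, at 5.61 and 5.46 (5.53 ± 0.11), which passed the threshold of replicate 1 only. Of the 24 FACIT probe sets, 9 (37.5%) were above background, against 61.8% of all probe sets with 1 gene. In the remaining classes the share was 85.7% for fibrillar, 41.7% for basement membrane, 71.4% for beaded filament and 55.6% for other collagen probe sets.

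The other classes hold network, multiplexin, anchoring and transmembrane collagens, and Col26a1. Of their 11 genes, 7 (63.6%) were above background, against 68.4% of all genes. Col8a1, which encodes a chain of the hexagonal type VIII network found beneath endothelia, was at 12.58 and 12.54 (12.56 ± 0.024), and its partner Col8a2 at 7.82 and 7.79 (7.81 ± 0.026). Col18a1, whose product carries the endostatin domain at its end, was at 10.33 and 10.39 (10.36 ± 0.045). The related multiplexin gene Col15a1 was at 6.10 and 6.02 (6.06 ± 0.055), 0.47 log2 units above the threshold. Col7a1, which encodes the anchoring fibril that ties epidermis to dermis, was at 9.51 and 9.45 (9.48 ± 0.042). Col10a1, a marker of hypertrophic cartilage, was called at 6.01 and 5.90 (5.95 ± 0.078), 0.37 log2 units above the threshold.

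Of the transmembrane collagens, only Col25a1 was called, at 7.12 and 6.81 (6.96 ± 0.21). Its arrays differed by 0.30 log2 units, the largest difference among the collagen genes above background, and its other probe set was not above background, at 5.15 and 4.78 (4.96 ± 0.27). The other three were not called. Col13a1 was at 4.90 and 4.81 (4.85 ± 0.062) and Col23a1 at 5.43 and 5.55 (5.49 ± 0.087). Col17a1, which encodes a hemidesmosome protein of keratinocytes, was at 3.72 and 3.66 (3.69 ± 0.049). Among 3 measured keratinocyte markers 1 was above background, against 68.4% of all genes. This was Krt5 at 6.34 ± 0.19, whereas Krt14 was at 4.80 ± 0.058 and Trp63 at 4.52 ± 0.16. Outside the transmembrane collagens, Col26a1, the gene on chromosome 5, was not above background, at 4.77 and 4.70 (4.73 ± 0.055).

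The osteoblast and endothelial lists were split between called and not called genes, where 68.4% of all genes were called. In the osteoblast list 2 of 4 measured markers were above background, Sp7 at 6.18 ± 0.11 and Alpl at 7.98 ± 0.087, whereas Ibsp was at 4.09 ± 0.10 and Dmp1 at 4.67 ± 0.018. In the endothelial list 2 of 5 were, Pecam1 at 6.20 ± 0.14 and Tek at 6.15 ± 0.19, whereas Cdh5 was at 4.47 ± 0.087 and Vwf at 4.16 ± 0.27. The arrays do not show which cells of the culture made these transcripts, so a called marker does not show that its cell type was present. The part of osteoblasts, endothelial cells or keratinocytes in the collagen values was not tested.

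Collagen trimers need particular partner chains, and for 5 of 9 trimers considered the genes of all chains were above background. These were type I, the alpha 1 and 2 trimer of type IV, type V, the alpha 1, 2 and 3 trimer of type VI, and type VIII. The trimers with a chain gene not above background were type IX (Col9a2), type XI (Col11a2), and the type IV trimers with alpha 3, 4 and 5 (Col4a3, Col4a4) and with alpha 5 and 6 (Col4a6). Both of these type IV trimers hold the chain of Col4a5. The place of type XI rests on Col11a2, which lay 0.12 log2 units under the threshold for the mean. That gene was called with the median over a gene's probe sets, with unshared probe sets and on replicate 1 alone. Taken gene by gene, 68.4% of all genes were above background, and no share over comparable sets of genes was computed. Of 7 pairs of collagen genes that neighbour each other in the genome and were both measured, 3 had both genes above background, 3 had 1 and 1 had neither. Over all 14178 pairs of neighbouring protein-coding genes that were measured, 57.5% had both, 33.5% had 1 and the remaining 1276 pairs had neither. Neither the count of trimers nor the counts over 7 pairs carry a test.

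The call of a gene could depend on the probe set. Of 82 collagen probe sets, 47 (57.3%) were above background, against 61.8% of all probe sets with 1 gene. Several probe sets were present for 27 of the 42 genes, and in 8 of these 27 some were above background and others not (29.6%, against 43.5% of all genes with several). The 8 were Col5a3, Col6a4, Col9a1, Col9a3, Col12a1, Col14a1, Col20a1 and Col25a1. The Col12a1 means were 11.98, 9.99, 3.89 and 3.71, the widest range of any collagen gene, 8.26 log2 units. In Col5a3 the second probe set was at 3.74 and 3.63 (3.68 ± 0.083). In Col1a2 all 3 probe sets were above background, at means of 14.87, 14.08 and 7.43. In Col20a1 the means were 6.18, 6.16, 4.47 and 3.95, and in Col9a3 they were 6.39, 4.53 and 3.31. With the median over a gene's probe sets, Col6a4, Col9a3 and Col20a1 were no longer called, and Col11a2 and Col24a1 were. Each of the latter has 1 probe set and an unchanged value, and was called because the threshold for the mean fell from 5.59 to 5.28 under that rule. With vomeronasal and taste receptor genes as the reference set, Col6a4, Col10a1 and Col15a1 were no longer called.

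**Figure D2:**
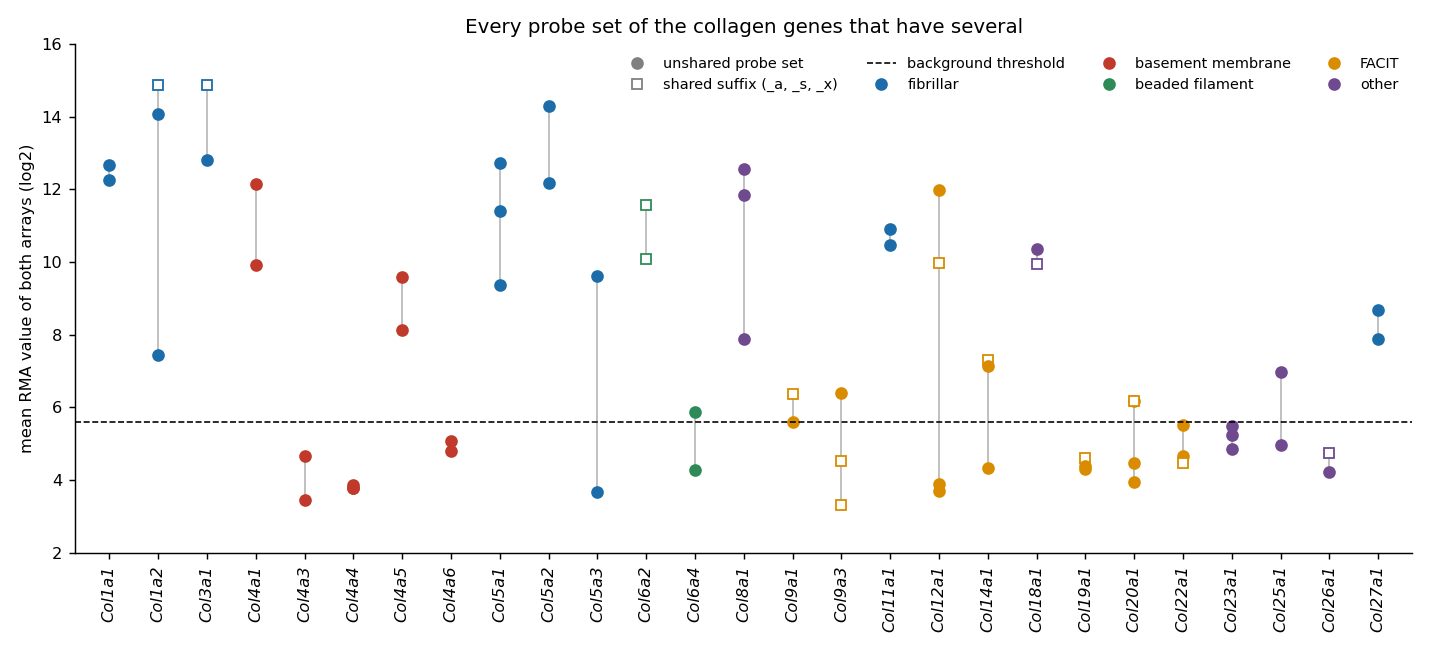
Mean RMA log2 value of both arrays (vertical axis) for every probe set of the 27 collagen genes that have several (horizontal axis), coloured by class, with open squares for probe sets whose suffix marks them as not unique to 1 transcript or gene. The dashed line is the background threshold, and 8 genes have points that are called and points that are not.

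Genes that modify, fold, cut and crosslink collagen chains, and genes of collagen receptors, were largely above background. Of 42 measured genes in the 4 lists, 36 (85.7%) were, against 68.4% of all genes. Among genes that modify the chains, 14 of 15 were above background. The prolyl 4-hydroxylase subunits, which stabilise the helix, were at 9.68 ± 0.0034 for P4ha1, 9.69 ± 0.024 for P4ha2, 8.82 ± 0.029 for P4ha3 and 12.50 ± 0.020 for P4hb. The galactosyltransferase gene Colgalt2 was not above background, at 5.54 ± 0.060.

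For folding and secretion, 7 of 8 measured genes were above background, against 68.4% of all genes. Serpinh1, which encodes the collagen-specific chaperone HSP47, was at 12.50 ± 0.0059, the isomerase gene Fkbp14 at 9.83 ± 0.024, Mia3, whose product TANGO1 loads procollagen into transport carriers, at 9.66 ± 0.033, and the coat protein gene Sec23a at 11.05 ± 0.0078. Mia2 was not above background, at 3.95 ± 0.054.

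For propeptide cleavage and crosslinking, 8 of 10 measured genes were above background, against 68.4% of all genes. The procollagen C-proteinase genes Bmp1 and Tll1 were at 9.44 ± 0.013 and 8.23 ± 0.042, and the genes of their enhancers, Pcolce and Pcolce2, at 13.01 ± 0.00073 and 9.99 ± 0.053. The N-proteinase gene Adamts3 passed the threshold of replicate 2 only, at 5.34 and 5.64 (5.49 ± 0.21), and Tll2 was not above background, at 4.24 ± 0.10. The lysyl oxidases crosslink collagen. Their 4 measured genes are members of the list, but they are named here outside the rule for naming genes, after their values were seen. They were at 14.20 ± 0.036 for Lox, 11.54 ± 0.056 for Loxl1, 10.55 ± 0.0043 for Loxl3 and 6.79 ± 0.071 for Loxl4, all above background.

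Among the receptors, 7 of 9 measured genes were above background, against 68.4% of all genes. The integrin subunit genes were at 8.11 ± 0.0077 for Itga1, 6.13 ± 0.15 for Itga2, 6.46 ± 0.18 for Itga10 and 12.08 ± 0.027 for Itgb1, which encodes their common beta subunit. The receptor genes of platelets and leukocytes were not above background, with Gp6 at 5.27 ± 0.16 and Lair1 at 3.92 ± 0.17.

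**Figure D3:**
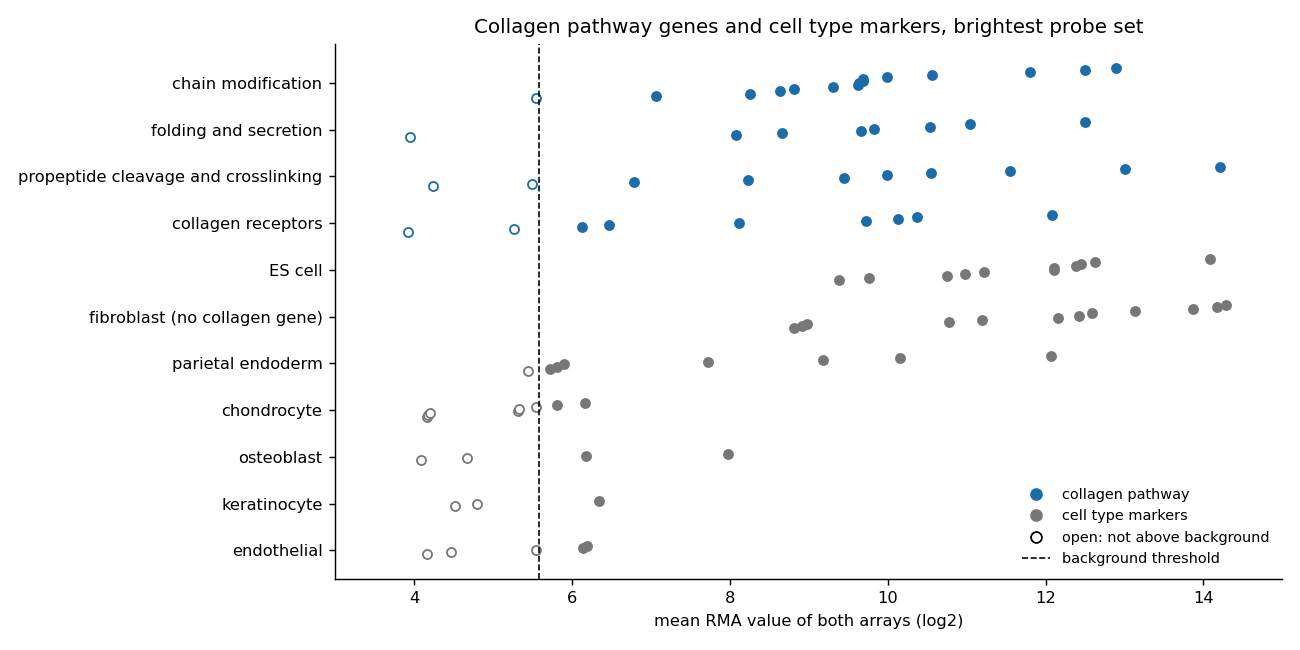
Mean RMA log2 value of both arrays (horizontal axis) for each measured gene of 4 collagen pathway lists (blue) and 7 cell type marker lists (grey), with filled points above background and open points not, and a dashed line at the threshold. Of the pathway genes 36 of 42 are filled, and all 11 ES cell and 12 fibroblast markers are. Of all genes, 68.4% were above background.

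The arrays differed little in collagen genes. On 1 array or both, 31 collagen genes passed the threshold. Their difference, replicate 2 minus replicate 1, had an SD of 0.124 log2 units, against 0.114 over all 12769 such genes. The median difference was -0.0075 over these collagen genes and 0.015 over all. No collagen gene differed by 1.5-fold, against 0.0783% of all genes (10 of 12769). Without a filter on dim genes, 0 of all 42 collagen genes did, against 0.126% of all genes.

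The spread depended on the value, as for the array as a whole. The 16 collagen genes at least 4 log2 units above the threshold had an SD of the difference of 0.049, against 0.060 in all genes of that range. The 5 genes from 2 to 4 log2 units above it had 0.12, against 0.087. The 10 genes under 2 log2 units above it, or below it, had 0.19, against 0.16. Among the 31 genes that passed the threshold on 1 array or both, the widest differences were -0.32 for Col11a2, -0.30 for Col25a1, 0.25 for Col6a4 and 0.23 for Col2a1. Under the threshold on both arrays, Col19a1 differed by 0.27 and Col4a3 by -0.26. Of the genes with the widest differences among the 31, Col11a2 was the one whose arrays lay on either side of the threshold.

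**Figure D4:**
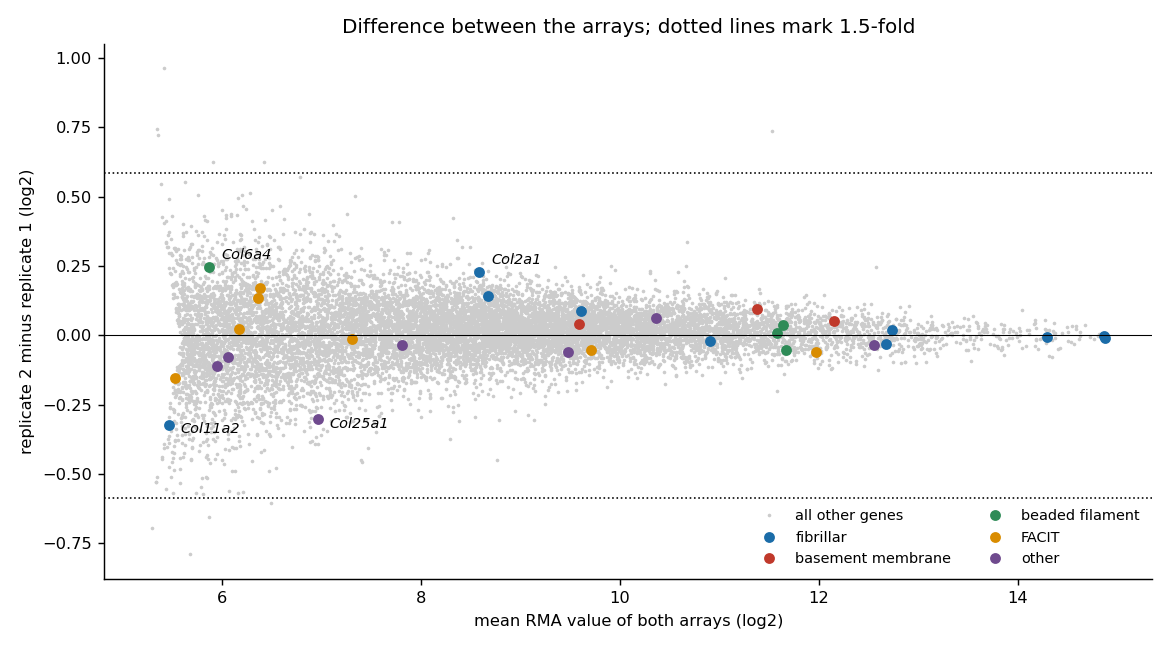
Difference between the arrays, replicate 2 minus replicate 1 in log2 units (vertical axis), against the mean RMA log2 value (horizontal axis) for all 12769 genes that passed the threshold on 1 array or both (grey) and the 31 collagen genes among them (coloured by class). All 31 lie between the dotted lines that mark 1.5-fold.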

How the data were processed

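RNA was measured on 2 Affymetrix arrays of 1 group. The authors deposited log2 values for each probe set, computed with RMA, per the submitters' processing notes. RMA corrects background, quantile-normalizes arrays and summarises probes, which hides any shift common to most genes. The RMA version and the set of arrays normalized together are not given in the sources. All columns were used.

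Probe sets were named through the platform annotation (34958 with 1 symbol, 932 with several, 9211 with none), and all 42 collagen genes matched the GRCm38.p6 reference by identifier. The brightest probe set stood for a gene. The members, classes and lists were chosen with earlier results of these data known. All collagen genes are named, and of each other list the first 4 called members and the first 2 not called, apart from exceptions stated in the text. With 1 group no test between groups was possible, and calls rest on the threshold. Protein sequences were not used here. Calculations used Python 3.11.15, pandas 2.3.3 and statsmodels 0.14.6, were tested on simulated data, and were repeated with other percentiles (99th), reference genes, probe set rules, normalizations (centring, loess with fraction 0.3) and single arrays.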

Additional observations from a re-analysis of the deposited data

How the results depend on the processing

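The count of 29 of 42 collagen genes above background was also 29 at the 99th percentile (67.1% of all genes). It was 26 with vomeronasal and taste receptor genes as reference (61.5% of all genes) and 28 with the median over a gene's probe sets (66.9%). Unshared probe sets gave 30 of 38 (69.4% of all genes). Col2a1, Col6a2 and Col16a1, called in the main setting, and Col17a1, not called, have no unshared probe set and dropped out there. Centring each array could not change a call, because the threshold moved with the values. Single arrays gave 29 to 31. Col6a4, Col10a1 and Col15a1 lost their call with the vomeronasal and taste receptor reference, and Col6a4, Col9a3 and Col20a1 with the median. Col11a2 and Col24a1 gained theirs with the median and with unshared probe sets, under which the threshold fell from 5.59 to 5.28, and Col22a1 and Col23a1 with unshared probe sets. On replicate 1 alone Col11a2 and Col22a1 were called. The FACIT count of 6 of 9 ranged from 4 to 7. The count of genes far above background, 16, ranged from 14 to 17. Of 97 alternative counts and SDs, 97 stayed within 1.5 times the reported value. That limit is a weak check, because counts close to their total could not rise so far. The calls and SDs after centring could not change at all. The FACIT count of 4, found with the median over a gene's probe sets, lay on the limit. With that median, the level of all 27 collagen genes with several moved by more than its SD between arrays, in Col12a1 from 11.98 to 6.94. Current gene symbols left the 82 members as they were. No paired analysis was possible because the arrays form a single group. Near the threshold, signal over background is the limit: weakly expressed and silent genes cannot be separated there.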

Other observations

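The promoter windows of measured collagen genes (RefSeq, GRCm38.p6, 250 bases before to 50 after the start) were available for 33 of the 42 genes, as 36 windows. A GC box (GGGCGG, either strand) stood in 22 of the 36 windows (61.1%), against 35.7% of all windows in the table, and the median GC content was 59.8% against 52.7%. A CCAAT box (CCAAT, either strand) stood in 12 of 26 windows of genes above background and in 1 of 10 windows of genes that were not, Col17a1, against 37.4% of all windows. A TATA box (TATAAA, either strand) stood in 2 of the 26, Col3a1 and Col10a1, and in 3 of the 10, against 13.6% of all windows. For the GC box the counts were 17 of the 26 and 5 of the 10. These counts describe the windows, were made after the calls were seen, and carry no test.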
